A study of Bos taurus with 18 samples.

Results

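Senescent and primary fibroblasts of 1 cattle line, called Simmental-like in the labels, were compared across all genes by RNA sequencing. The comparison takes 6 of the 18 libraries of the series, chosen by their stage label and by the culture name of their column: 3 senescent libraries (line Sn-BF-13, culture BDF-20-MultiXray-Ctrl) and 3 primary libraries (line PBF-13, culture BDF-20-3B-4). The study asked how fibroblasts taken from cows change while they are kept in culture for a long time, from the primary stage through senescence to spontaneous immortalization. The series also holds 3 immortalized Simmental-like libraries (line HUN-BF-13, culture BF-13), which entered the fit to help estimate the spread but are not described, and 9 libraries of a Holstein-like line, which were not used. No treatment, genotype, body site or passage number is given for either group. The part "MultiXray-Ctrl" of the senescent culture name has no counterpart in the primary one, and what it stands for is not given in the sources used here, so stage and named culture cannot be told apart. The replicates are labelled biological, but no label says that they came from separate cultures. P-values therefore measure a change against the scatter of all 9 Simmental-like libraries, the immortalized ones included, and that scatter may be technical.

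Fibroblasts are the connective tissue cells that make collagen and other matrix. In culture they divide for a limited time and then enter senescence, a lasting stop of the cell cycle in which cells stay alive and are known to release cytokines, growth factors and matrix-remodelling proteins. Signals released by a cell act through receptors on the same or on neighbouring cells. Transcription factors set which genes a cell reads, and channels and transporters set its ion balance and what it takes up.

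The libraries held 20.7, 19.0 and 19.4 M counts (M, 1e+06) in the senescent group and 20.2, 23.2 and 18.4 M in the primary group, and counts were seen for 16015 to 16122 genes in the senescent libraries and for 14410 to 14698 in the primary ones. The unit of level is CPM, the count per M of a library's counts once scaled by TMM, and a gene without a count in a library could stand at up to 0.125 to 0.204 CPM there, which is the value of 3 counts. The senescent libraries lay close together, with a median SD of 0.0727 (log2 CPM) per gene, against 0.38 in the primary group. The fit used 1 estimate of spread per gene for all groups, so the p-values do not carry this difference. Pearson correlations across genes, which are not independent replicates, were 0.994 to 0.995 between senescent libraries and 0.940 to 0.987 between primary ones. Primary library 1 stood apart: it was the primary library farthest from the median of its group in 8557 of 13099 tested genes, and mitochondrial transcripts took 9.92% of its counts, against 2.50% and 3.12% in the other primary libraries and 2.33% to 2.55% in the senescent ones. Of the 3704 genes that rose, primary library 1 was the lowest primary library in 2133 (57.6%), and of the 3887 that fell it was the highest in 2694 (69.3%). The part of this library in the results was not tested beyond leaving it out, which raised the number of genes that passed to 8990. That rise was not particular to it, as 9042 genes passed without primary library 2 and 6535 without primary library 3.

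**Figure D1:**
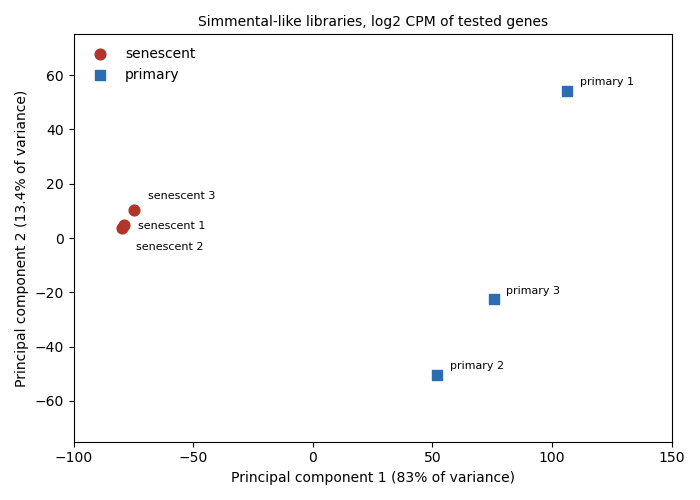
Principal components of log2 CPM over the 13099 tested genes, 1 mark per library, with senescent libraries as circles and primary libraries as squares. Component 1 takes 83% of the variance and separates the groups, and component 2, with 13.4%, sets primary library 1 apart from primary libraries 2 and 3 while the 3 senescent libraries sit together.

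Both groups carried the transcripts of fibroblasts at high levels, and most of those transcripts were lower in the senescent libraries. All 15 fibroblast marker genes were tested, and 14 fell while 1 rose. By total counts 8 of them fell, and with a minimum change of 2-fold 4 fell. The summed level of the 15 genes was 34590 to 34730 CPM in senescent libraries, against 72440 to 73750 CPM in primary libraries. DCN, the matrix proteoglycan decorin, stood at 661, 655 and 672 CPM in senescent libraries, against 3117, 1825 and 2372 CPM in primary libraries, while FAP, a surface protease of activated fibroblasts, rose by 0.57 ± 0.11 on the log2 scale. Markers of pericytes and smooth muscle, some of which contractile fibroblasts also make, were present in both groups and summed to 1690 to 1817 CPM in senescent libraries, against 4429 to 7705 CPM in primary libraries. Of 7 tested 2 rose and 3 fell. ACTA2, the smooth muscle actin, fell to 340.4, 335 and 354 CPM in senescent libraries, against 3482, 1858 and 2344 CPM in primary libraries, and the actin-binding proteins TAGLN and CNN1 fell by 1.32 ± 0.19 and 1.96 ± 0.19. Of 10 keratinocyte and epithelial markers 9 stayed under 1 CPM in both groups, and ESRP1, an epithelial splicing factor, was the exception at 3.43, 3.81 and 2.90 CPM in senescent libraries, against 0.341, 0.283 and 0 CPM in primary libraries. Under 1 CPM in both groups were also 6 of 10 endothelial, all 9 skeletal muscle, 8 of 13 immune cell and 7 of 9 neuronal markers; of the 3 neuronal markers tested 2 fell and 1 rose (median -2.81). MYOD1, MYOG, PAX7, TYR, DCT, MLANA, MS4A1 and TYROBP had no count in any of the 6 libraries. Summed levels were higher in senescent libraries for chondrocyte and osteoblast markers, at 51.7 to 55.2 CPM against 10.03 to 13.8 CPM in primary libraries, and for melanocyte and Schwann cell markers, at 43.1 to 47.6 CPM against 17.8 to 28.8 CPM. In these 2 lists 5 of 10 and 7 of 11 markers were under 1 CPM in both groups. Of 6 chondrocyte and osteoblast markers tested 5 rose and 1 fell, and ACAN alone had a mean of 26.9 CPM in senescent libraries. Whether changes in the share of cell types took part in the results below was not tested, and fewer cells of a type cannot be told apart from less RNA per cell in bulk libraries. Of 16 proliferation markers 9 fell and 1 rose, TOP2A, at 354, 355 and 333 CPM in senescent libraries, against 147, 262 and 235 CPM in primary libraries. The summed level of the 16 markers was 2191 to 2229 CPM in senescent libraries, against 2670 to 2776 CPM in primary libraries. None of the 16 was under 1 CPM in both groups, so these transcripts stayed present in the senescent libraries as a set. By total counts, however, 5 of the proliferation markers rose and 5 fell, with a median of 0.12 in place of -0.35, and with a minimum change of 2-fold none passed.

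Over all genes, 7591 of 13099 passed the threshold of 0.05 on the adjusted p of edgeR's quasi-likelihood test, a share of 58%. A gene is said to have risen or fallen only where it passed. Of all tested genes 28.3% rose and 29.7% fell in senescent against primary libraries, and the median change was 0.01 on the log2 scale. Groups that do not overlap were found for 66.6% of tested genes. Counts of list members below are to be read beside these shares. The balance of rises and falls rests on the scaling: by total counts 5955 genes rose and 1840 fell, and the median of all genes moved up by 0.46 on the log2 scale, so falls of less than this size hold only relative to the bulk of genes. Under that scaling the medians of 7 of 49 lists turned from below to above 0: interleukins and other cytokines, BMP and TGF-beta antagonists, complement, receptor tyrosine kinases, Wnt, Notch and Hedgehog receptors, HOX genes and calcium channels. Changes are given as log2 of senescent over primary ± SE, and levels of different genes are not compared, because CPM is not corrected for length.

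Against this background, genes for secreted factors moved in both directions, and genes for receptors, transcription factors, channels and adhesion molecules rose more often than they fell. Of 217 tested genes for secreted factors 87 rose and 75 fell, with a median change of 0.16. Receptor genes numbered 265, of which 119 rose and 57 fell (median 0.49). Among 392 genes for transcription factors 161 rose and 99 fell (median 0.35), and among 203 genes for channels and transporters 97 rose and 47 fell (median 0.59). Adhesion genes had the highest median of the 5 classes at 0.97, with 35 of 72 rising and 13 falling. A gene could also be at or near no counts in 1 group: 154 of 13099 genes (1.18%) had at least 1 CPM in senescent libraries with 3 counts or fewer over the primary group, and 23 (0.176%) showed the reverse. Channels and transporters held 15 such genes of 203 (7.39%) and secreted factors 13 of 217 (5.99%) on the senescent side. On the primary side secreted factors held 5 of 217 (2.3%). Such genes could enter the test only through libraries in which they had more counts.

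**Figure D2:**
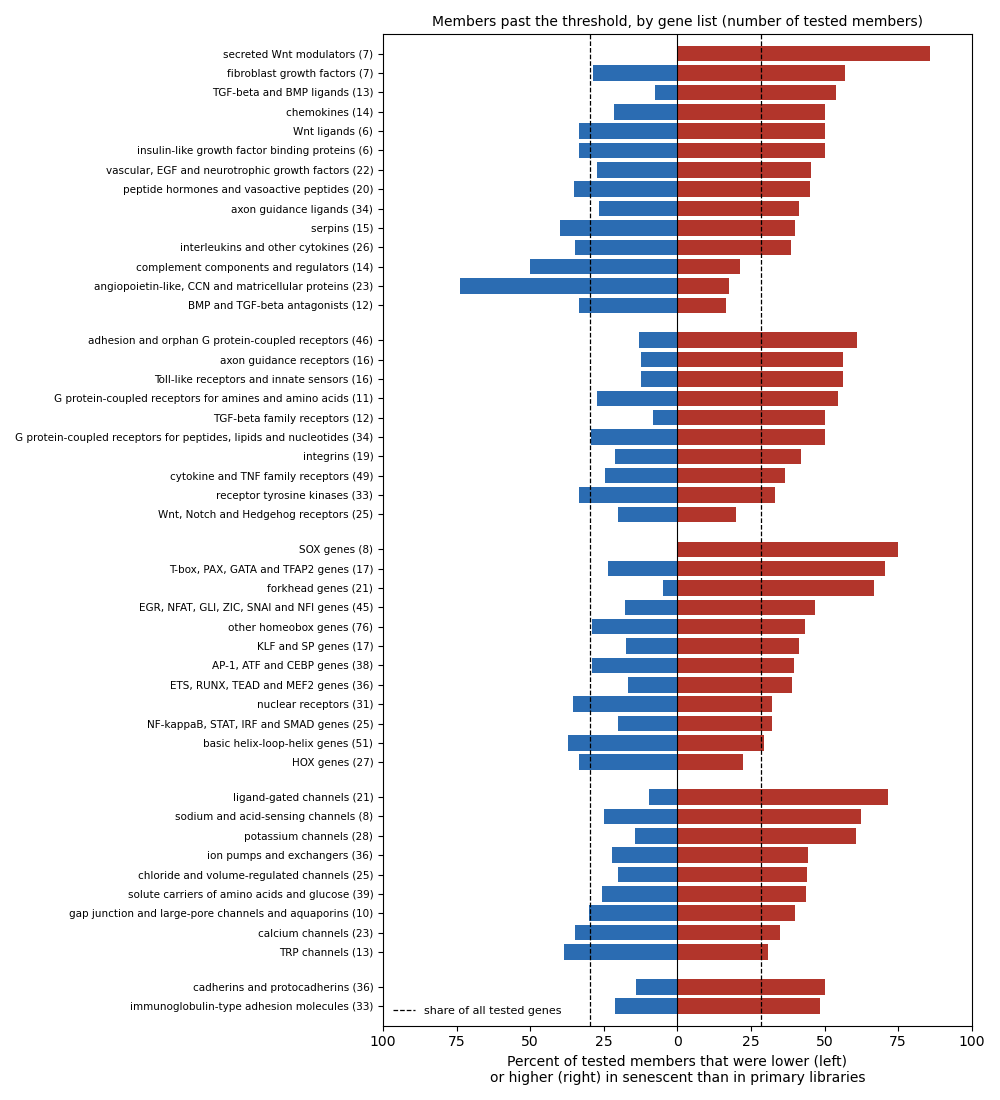
Percent of the tested members of each gene list (lists with 6 or more such members) that passed the threshold and were higher (bars to the right) or lower (bars to the left) in senescent than in primary libraries, with the number of tested members in brackets and lists grouped by class from secreted factors at the top to adhesion molecules at the bottom. Dashed lines mark the shares of all tested genes, 28.3% higher and 29.7% lower; the bar for secreted Wnt modulators (6 of 7 higher) reaches farthest right and that for matricellular proteins (17 of 23 lower) farthest left.

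Cytokine and chemokine genes changed in opposite directions by family member. Of 26 tested interleukin and other cytokine genes 10 rose and 9 fell, and of 14 chemokine genes 7 rose and 3 fell. IL1A, an alarm cytokine of the interleukin-1 family, had 11.2, 9.70 and 11.5 CPM in senescent libraries, against 0.0681, 0 and 0 CPM in primary libraries, a ratio of 562 (95% counting interval 101 to 22226). Its natural antagonist IL1RN stood at 13.3, 15.8 and 14.9 CPM in senescent libraries, against 0.613, 0.0471 and 0.187 CPM in primary libraries. Both genes of this ligand and antagonist couple were thus high in all 3 senescent libraries and low in all 3 primary ones. The rule for naming list members requires such a separation. Among chemokines, which direct the movement of white blood cells, CCL20 and CX3CL1 lacked counts in the primary group; against a bound of 3 counts over that group, senescent levels were higher by at least 29.9-fold for CCL20 and 17.7-fold for CX3CL1. CCL5 rose as well (4.61 ± 0.60, adjusted p = 0.000347), by 6.73 when primary library 1 was left out. The interferon-induced chemokines went the other way: CXCL10 was at 0, 0 and 0.134 CPM in senescent libraries, against 4.50, 1.79 and 2.99 CPM in primary libraries, and CXCL9 was lower by a ratio of 49.4 (95% counting interval 13.2 to 415). Without senescent library 3, which holds its 3 senescent counts, the fitted change of CXCL10 was -8.92 in place of -5.93. IL34, a ligand of the macrophage growth factor receptor, fell (-2.09 ± 0.25), and TNFSF18, a ligand of T cell costimulation, stood at 5.56, 5.35 and 4.32 CPM in senescent libraries, against 31.7, 34.0 and 31.7 CPM in primary libraries.

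Growth factor genes changed in both directions. Of 22 vascular, epidermal and neurotrophic growth factor genes 10 rose and 6 fell, and of 7 fibroblast growth factor genes 4 rose and 2 fell, or 1 fell without senescent library 2. HGF, which acts on epithelium through the receptor MET, was at 22.2, 22.6 and 20.05 CPM in senescent libraries, against 0.0681, 0.189 and 0.0623 CPM in primary libraries (7.48 ± 0.27, adjusted p = 5.00e-07; 8.24 without primary library 2). Ligands of the epidermal growth factor receptor rose as well, HBEGF (3.29 ± 0.24) and AREG (3.50 ± 0.35). FGF1 was without counts in primary libraries and at least 27.6-fold higher in senescent ones, and FGF5, a factor that ends hair growth, was higher by a ratio of 164 (95% counting interval 29.1 to 6509). FGF2, by contrast, was present in both groups and rose by 0.63 ± 0.11. On the falling side, PTN, the heparin-binding factor pleiotrophin, had 283, 281 and 284 CPM in senescent libraries, against 1490.3, 908 and 1233 CPM in primary libraries. The groups did not overlap, which the rule for naming list members requires.

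Morphogen genes rose more often than they fell, whereas the list of BMP and TGF-beta antagonists did not. Of 7 tested secreted modulators of Wnt signalling 6 rose and none fell; RSPO3 was the member that did not pass. DKK2, an inhibitor of the Wnt coreceptors, had 169, 165 and 161 CPM in senescent libraries, against 12.9, 26.4 and 19.9 CPM in primary libraries (3.06 ± 0.24, adjusted p = 2.07e-05), and SFRP2, a secreted Wnt-binding protein, had 319, 327 and 340.3 CPM, against 96.0, 60.6 and 76.2 CPM. SOSTDC1, an inhibitor of Wnt and BMP signals, lacked counts in the primary group and was at least 31.4-fold higher in senescent libraries. Of 6 Wnt ligand genes 3 rose and 2 fell: WNT5A and WNT5B rose by 3.32 ± 0.23 and 2.16 ± 0.12, and WNT2 and WNT11 fell by 2.78 and 1.08. Of 13 TGF-beta and BMP ligand genes 7 rose and 1 fell; without primary library 1 the number that rose was 11, and with any senescent library left out none fell. TGFB2 was at 30.4, 30.3 and 29.98 CPM in senescent libraries, against 3.47, 10.1 and 7.35 CPM in primary libraries, and GDF11 at 18.9, 18.6 and 18.6 CPM, against 2.52, 6.13 and 4.80 CPM. For both, the lowest value of all 6 libraries was that of primary library 1. Among 12 antagonists 2 rose and 4 fell: LTBP1, which stores latent TGF-beta in the matrix, rose by 2.26 ± 0.44, and the activin binder FST fell by 1.36 ± 0.23.

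Matricellular genes mostly fell, and serpins and binding proteins went both ways. Of 23 angiopoietin-like, CCN and other matricellular genes 17 fell and 4 rose, with a median change of -1.18. WISP2, a CCN family protein, had 1.59, 1.45 and 1.43 CPM in senescent libraries, against 1022, 588 and 749.6 CPM in primary libraries, a change of -9.04 ± 0.27 (adjusted p = 3.59e-07), while its relative WISP1 rose (1.62 ± 0.36). Of 15 serpin genes, which mostly encode protease inhibitors, 6 rose and 6 fell. SERPINB2 (row ENSBTAG00000023198), an inhibitor of plasminogen activators, was at 60.4, 59.6 and 64.1 CPM in senescent libraries, against 0, 0.0943 and 0.0623 CPM in primary libraries, and SERPINA11, without a count in primary libraries, was at least 155-fold higher in senescent ones. SERPINF1, the pigment epithelium-derived factor, fell to 16.4, 14.8 and 17.9 CPM in senescent libraries, against 219, 104 and 133 CPM in primary libraries. A second row named SERPINB2 did not pass (-0.14 ± 0.14), and reads of near-identical copies could have been split between the rows. IGFBP7 rose and IGFBP6 fell among the proteins that bind insulin-like growth factors, to 202, 199 and 204 CPM and 176, 173 and 187 CPM in senescent libraries, against 8.45, 5.33 and 5.23 CPM and 915, 436 and 594 CPM in primary libraries. Of 14 complement genes 3 rose and 7 fell, and the number that rose was 6 without primary library 1 but 1 without senescent library 2 or 3. MASP1, a protease of the lectin pathway, and CD59, which blocks the membrane attack complex, fell by 3.13 ± 0.18 and 2.79 ± 0.22.

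Peptide hormone genes were split. Of 20 tested members 9 rose and 7 fell. EDN1, the vasoconstrictor endothelin-1, had 7.32, 9.11 and 8.42 CPM in senescent libraries, against 0.341, 0.330 and 0.436 CPM in primary libraries (4.47 ± 0.18, adjusted p = 6.41e-07). CCK, the gut and brain peptide cholecystokinin, was higher by a ratio of 204 (95% counting interval 56.1 to 1685), and NPPB, a natriuretic peptide of the heart, by a ratio of 91.1 (95% counting interval 16.0 to 3629). ADM, the vasodilator adrenomedullin, fell to 68.6, 66.4 and 70.2 CPM in senescent libraries, against 1491, 457 and 582 CPM in primary libraries. SST, the release-inhibiting hormone somatostatin, was at 124, 121 and 134 CPM in senescent libraries, against 1909.8, 499 and 763 CPM in primary libraries, and POMC, the precursor of melanocortins and endorphin, at 0.251, 0.181 and 0.223 CPM, against 26.2, 8.48 and 12.8 CPM. In ADM, SST and POMC primary library 1 was more than 2 times as high as either other primary library. Their groups did not overlap, as the rule for naming list members requires. Among the secreted factors with the highest mean CPM that did not pass was IGFBP3, the main carrier of insulin-like growth factors in blood, at 226, 217 and 223 CPM in senescent libraries, against 80.5, 179 and 180.4 CPM in primary libraries (0.60 ± 0.26, adjusted p = 0.0789); it passed without primary library 1 or 2, at 0.30 and 0.76.

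**Figure D3:**
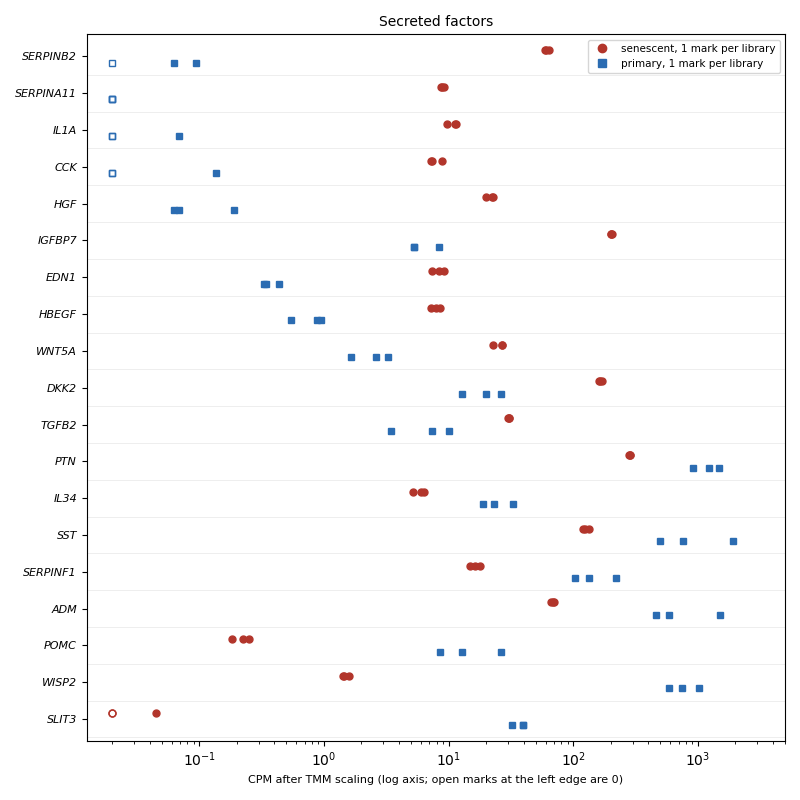
CPM after TMM scaling on a log axis for 19 secreted factors, with 1 mark per library: senescent libraries as circles in the upper line of each row, primary libraries as squares in the lower line, and open marks at the left edge for libraries without a count. From SERPINB2 down to TGFB2 the senescent marks lie to the right of the primary marks, and from PTN down to SLIT3 to the left.

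Receptor tyrosine kinase genes, for receptors of growth factors, were evenly divided: of 33 tested 11 rose and 11 fell. These shares, 33.3% each, were near the 28.3% that rose and 29.7% that fell over all tested genes. PDGFRA, the platelet-derived growth factor receptor of fibroblasts, had 179, 169.5 and 167 CPM in senescent libraries, against 509, 753 and 604 CPM in primary libraries (-1.85 ± 0.15, adjusted p = 2.32e-05), and FGFR1 had 105, 104 and 107 CPM, against 291, 262 and 278 CPM. FLT1, a receptor of vascular endothelial growth factor, fell by 1.68 ± 0.13, whereas KDR, the main receptor of the same factor in vessels, lacked counts in the primary group and was at least 21.3-fold higher in senescent libraries, at 0.920, 1.45 and 1.34 CPM. EGFR rose to 34.0, 36.1 and 28.4 CPM in senescent libraries, against 4.09, 17.7 and 7.72 CPM in primary libraries, and ALK, a receptor tyrosine kinase of developing neurons, to 2.05, 1.45 and 1.83 CPM, against 0.272, 0.236 and 0.187 CPM.

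Cytokine receptors and innate sensors changed in both directions too. Of 49 genes for cytokine and TNF family receptors 18 rose and 12 fell. OSMR, the oncostatin M receptor, fell to 13.0, 13.2 and 11.6 CPM in senescent libraries, against 51.8, 58.9 and 53.7 CPM in primary libraries, while IL31RA, which pairs with OSMR to bind interleukin-31, rose to 12.2, 10.8 and 10.7 CPM, against 0.204, 0.236 and 0.374 CPM. The partners of this receptor complex thus moved oppositely. TNFRSF6B, a soluble decoy receptor for FAS ligand, was at 2.51, 1.63 and 2.32 CPM in senescent libraries, against 437, 139 and 216 CPM in primary libraries (-6.93 ± 0.50, adjusted p = 1.47e-05). IL6ST, the shared signal chain of the interleukin-6 family, was at 122, 121 and 95.8 CPM in senescent libraries, against 7.97, 51.4 and 22.2 CPM in primary libraries, and was no longer called when primary library 3 was left out (adjusted p = 0.0524). Of 16 Toll-like receptor and innate sensor genes 9 rose and 2 fell. The sensors NLRP3, which starts the inflammasome, NLRC5, which switches on antigen presentation, and IFIH1, which detects viral RNA, rose by 3.60 ± 0.18, 2.68 ± 0.20 and 2.55 ± 0.27. TLR4, the receptor for bacterial lipopolysaccharide, fell by 2.31 ± 0.28. The other member that fell, CLEC3B, encodes the plasma protein tetranectin and is no sensor, although its name put it in the list.

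Receptors of developmental signals changed member by member. Of 12 TGF-beta family receptor genes 6 rose and 1 fell (2 without primary library 1), namely ACVRL1, a BMP receptor of vessels, at 0.878, 0.726 and 0.935 CPM in senescent libraries, against 35.5, 29.5 and 32.3 CPM in primary libraries (-5.25 ± 0.19, adjusted p = 5.00e-07). BMPR1B rose to 65.4, 70.2 and 59.3 CPM, against 25.3, 29.9 and 22.2 CPM, and BAMBI, a decoy receptor, by 1.51 ± 0.23. Of 25 Wnt, Notch and Hedgehog receptor genes 5 rose and 5 fell. Without primary library 1 the number that fell was 12, and the number that rose was 2 without senescent library 1 and 3 without senescent library 3 or primary library 3. The Hedgehog signal transducer SMO fell to 47.9, 50.6 and 53.9 CPM in senescent libraries, against 214, 200.0 and 202 CPM in primary libraries, whereas the Hedgehog receptor PTCH1, which holds SMO back and is itself a target of the pathway, rose by 2.25 ± 0.37. The Wnt coreceptor LRP5 fell by 2.30 ± 0.16, and its close relative LRP6 and the receptor FZD6 rose by 1.33 ± 0.38 and 2.15 ± 0.37. LRP6 missed the threshold without senescent library 1 or primary library 3 (adjusted p = 0.0518 and 0.0592). Of 16 axon guidance receptor genes 9 rose and 2 fell. PLXNA2, a semaphorin receptor, was at 52.5, 54.0 and 53.6 CPM in senescent libraries, against 1.63, 1.41 and 0.997 CPM in primary libraries, and ROBO2, a SLIT receptor, at 3.39, 2.86 and 3.03 CPM, against 0, 0.0471 and 0.187 CPM. The groups stood apart in both, as the rule for naming list members requires.

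Most of the changed G protein-coupled receptor genes rose, several of them from no counts. Of 46 adhesion and orphan receptor genes 28 rose and 6 fell (median 1.21). Under a stricter filter (at least 5 CPM in 3 libraries) 16 of the adhesion and orphan receptor genes rose. LPHN2, a latrophilin, was at 35.4, 34.2 and 32.4 CPM in senescent libraries, against 0.681, 2.03 and 1.56 CPM in primary libraries, and GPR81, a lactate receptor, at 7.40, 6.94 and 6.19 CPM, against 0.204, 0.330 and 0.0623 CPM. Of 34 receptor genes for peptides, lipids and nucleotides 17 rose and 10 fell, and under the stricter filter 10 rose and 6 fell. NPY1R, a receptor of neuropeptide Y, and CNR1, the brain-type cannabinoid receptor, were without counts in primary libraries and at least 70.1-fold and 50.6-fold higher in senescent ones. NPR3, which clears natriuretic peptides, fell to 18.9, 19.5 and 15.2 CPM in senescent libraries, against 84.7, 216 and 149.8 CPM in primary libraries. AGTR1, the angiotensin II receptor, fell to 0.669, 0.680 and 0.445 CPM, against 2.93, 21.3 and 15.7 CPM, and there primary library 1 was the lowest of its group and nearest to the senescent libraries. Of 11 receptor genes for amines and amino acids 6 rose and 3 fell: DRD1, a dopamine receptor, rose by 5.23 ± 0.49, and ADRB1, the heart-type adrenergic receptor, had no counts in senescent libraries and was at least 69.8-fold lower there. Of 4 tested chemokine receptor genes 2 rose and 1 fell: CXCR4 and CCR7, homing receptors of white blood cells, rose by 2.77 ± 0.16 and 4.02 ± 0.48, the second by 5.17 without primary library 2, and the 1 that fell was not called when primary library 3, senescent library 1 or senescent library 2 was left out.

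Integrin genes, for the receptors that hold cells to matrix, rose in 8 of 19 cases and fell in 4. ITGA6, a laminin receptor chain, was at 449, 464 and 395 CPM in senescent libraries, against 13.6, 46.9 and 32.1 CPM in primary libraries (3.82 ± 0.44, adjusted p = 0.000173). ITGAV, a chain of vitronectin receptors, was at 310.1, 312 and 248 CPM in senescent libraries, against 9.40, 111 and 47.2 CPM in primary libraries; its primary values spread widely, and leaving out primary library 3 ended its call (adjusted p = 0.0689). The collagen receptor chain ITGA11 and the vitronectin receptor chain ITGB5 fell by 1.44 ± 0.30 and 1.03 ± 0.08. ITGB1, the chain shared by most integrins of fibroblasts, did not pass, at 1388, 1398 and 1258 CPM in senescent libraries, against 603, 1866 and 1435 CPM in primary libraries (0.05 ± 0.34), and its sign turned with the library left out, to -0.30 without primary library 1 and 0.40 without primary library 2. Other receptor genes with high means that did not pass were NOTCH2 and ENG, with changes of 1.31 ± 0.66 and -0.43 ± 0.26. NOTCH2 passed without primary library 2, at 2.42, and ENG without primary library 1, at -0.73. For NOTCH2 primary library 1 stood at 35.5 CPM, below the 306 and 100.2 CPM of primary libraries 2 and 3.

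**Figure D4:**
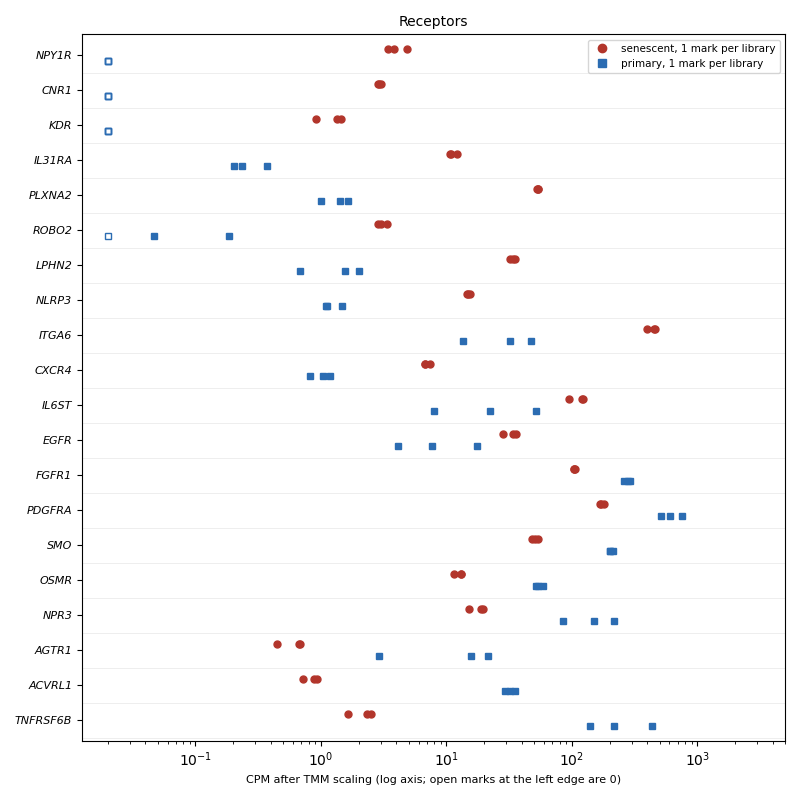
CPM after TMM scaling on a log axis for 20 receptor genes, with 1 mark per library: senescent libraries as circles in the upper line of each row, primary libraries as squares in the lower line, and open marks at the left edge for libraries without a count. From NPY1R to EGFR the senescent marks lie to the right, and from FGFR1 to TNFRSF6B to the left; IL6ST and EGFR show the wide spread of the primary libraries.

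Ligands and their receptors were also read together. Of 66 listed pairs both members passed in 21, and at least 1 member missed the threshold in 20. In the other 25 a member was not tested under its listed symbol. Pairs were counted, not tested, and 58% of all tested genes passed, with 28.3% rising and 29.7% falling. CXCL12 with ACKR3 was among the 25, because these data carry ACKR3 under its older name CXCR7. CXCR7 was tested and fell (-0.53 ± 0.15, adjusted p = 0.0172), as CXCL12 did, but this pair is not in the 21. Both rose in 7 pairs, namely VEGFA with KDR, HBEGF with EGFR, IL6 with IL6ST, IL11 with IL6ST, EDN1 with EDNRB, SLIT2 with ROBO1 and TGFB2 with TGFBR2. More than 1 row carries the symbol IL6. The row used (ENSBTAG00000014921) was at 5.06, 5.62 and 5.52 CPM in senescent libraries, against 0.817, 0.518 and 0.748 CPM in primary libraries. EDNRB, the endothelin receptor, was at 6.69, 6.80 and 6.95 CPM in senescent libraries, against 0.749, 0.707 and 1.06 CPM in primary libraries, next to the rise of EDN1, and ROBO1 was at 102, 101 and 96.8 CPM, against 11.1, 32.5 and 22.7 CPM. Both fell in 1 of the 21 pairs, FGF7 with FGFR2 (-0.82 ± 0.17 and -1.07 ± 0.19). By total counts FGF7 was no longer called (adjusted p = 0.173), nor were the falling members BDNF, ROR2 and LIF of the pairs below (adjusted p = 0.84, 0.732 and 0.49). In 7 pairs the ligand fell and the receptor rose, among them BDNF with NTRK2 and NGFR, PTN with ALK, LIF with IL6ST, CXCL12 with CXCR4, and SLIT3 with ROBO2. SLIT3, a guidance protein, had 0, 0 and 0.0445 CPM in senescent libraries, against 32.6, 39.6 and 39.6 CPM in primary libraries, lower by a ratio of 2572 (95% counting interval 461 to 101630.0). In 6 pairs the ligand rose and the receptor fell: PDGFA with PDGFRA, VEGFA with FLT1, FGF2 with FGFR1, IL11 with its own receptor IL11RA, PTHLH with PTH1R and WNT5A with ROR2. PDGFA rose by 1.25 ± 0.19 and IL11RA fell by 1.80 ± 0.15. PTH1R was low in both groups, at means of 0.089 CPM in senescent and 0.36 CPM in primary libraries, near the value of 3 counts. Several of these calls were weak. SLIT2 and TGFBR2 missed the threshold when any 1 senescent library or primary library 3 was left out (adjusted p = 0.0566 to 0.0748 and 0.0567 to 0.0646), and IL11 was not called when primary library 3 was left out (adjusted p = 0.0559). LIF missed it when any library other than primary library 1 was left out (adjusted p = 0.0783 to 0.136), and with all libraries in it also missed it under DESeq2 (adjusted p = 0.0708), limma-voom (0.0591), upper quartile scaling (0.0718) and no filter (0.064). CXCL12 fell by 0.27 ± 0.09 (adjusted p = 0.0357), missed the threshold when a senescent library or primary library 3 was left out (adjusted p = 0.0928 to 0.114), under upper quartile scaling (0.146) and with the 6 libraries alone (0.121), and turned to 0.19 under total-count scaling.

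Transcription factors of cell lineage, in the SOX list and the list of T-box, PAX, GATA and TFAP2 genes, rose more often than they fell. Of 8 tested SOX genes 6 rose and none fell (median 4.46). SOX9, the master factor of cartilage, had 9.16, 10.3 and 10.6 CPM in senescent libraries, against 0, 0 and 0.0623 CPM in primary libraries, and SOX5, its partner in cartilage, had 7.57, 6.76 and 7.39 CPM, against 0, 0 and 0.0623 CPM, so that each had 1 count in the primary group. SOX10, of neural crest, was higher by a ratio of 106 (95% counting interval 18.6 to 4199). Beside these, the cartilage matrix gene ACAN was at 27.5, 27.6 and 25.7 CPM in senescent libraries, against 0.613, 1.04 and 0.498 CPM in primary libraries, and the bone factor SP7 fell by 3.66 ± 0.44. Of 17 T-box, PAX, GATA and TFAP2 genes 12 rose and 4 fell. GATA4, of heart and gut mesoderm, rose by 7.56 ± 0.19 (adjusted p = 2.69e-07) and PAX9, of pharynx and spine, by a ratio of 119 (95% counting interval 40.6 to 581), while GATA2, of blood and vessels, fell by 0.93 ± 0.12.

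Homeobox genes, which set regional identity in the embryo, were the longest list. Of 76 homeobox genes outside the HOX clusters 33 rose and 22 fell. NKX2-5, a heart factor, had 15.0, 14.9 and 15.5 CPM in senescent libraries, against 0.409, 0.189 and 0.748 CPM in primary libraries, and NKX6-1, of pancreas and spinal cord, had 14.8, 14.0 and 15.3 CPM, against 0, 0.141 and 0.187 CPM. PRRX2, a limb and skin mesenchyme factor, fell to 130.1, 136 and 139.8 CPM in senescent libraries, against 1689.6, 704 and 1049.5 CPM in primary libraries (-3.09 ± 0.29, adjusted p = 6.74e-05), and BARX1, of jaw and stomach, was lower by a ratio of 712 (95% counting interval 127 to 28189). Of 27 HOX genes, which mark position along the body, 6 rose and 9 fell. HOXD13 and HOXA13, which pattern the limb end, rose by 3.69 ± 0.27 and 2.58 ± 0.33 (for HOXA13, 3.35 without primary library 2), and HOXC6, HOXC9 and HOXA10 fell by 1.39 ± 0.16, 1.66 ± 0.32 and 1.35 ± 0.15. Of 21 forkhead genes 14 rose and 1 fell (median 1.13), and without primary library 3 the number that rose was 9 and the number that fell 2, as it was without primary library 1. FOXA1, a factor that opens chromatin in gut and gland, was at 4.68, 4.44 and 3.92 CPM in senescent libraries, against 0.0681, 0.0943 and 0.187 CPM in primary libraries.

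Factors that answer signals changed in both directions within each family. Of 38 AP-1, ATF and CEBP genes 15 rose and 11 fell. FOS, the early growth response factor of AP-1, fell to 36.0, 35.7 and 38.1 CPM in senescent libraries, against 189, 95.4 and 103 CPM in primary libraries, while BATF3, of dendritic cells, rose by 3.66 ± 0.33 (4.32 without primary library 1). Of 31 nuclear receptor genes 10 rose and 11 fell, but 6 fell without senescent library 2 and 7 without senescent library 1. NR4A1, an early response receptor, fell to 11.5, 11.6 and 11.7 CPM in senescent libraries, against 71.3, 49.1 and 47.5 CPM in primary libraries. RORB, a nuclear receptor of retina and brain, was without counts in primary libraries and at least 68.1-fold higher in senescent ones, and THRB, a thyroid hormone receptor, was lower by a ratio of 54.6 (95% counting interval 14.7 to 459). Of 25 NF-kappaB, STAT, IRF and SMAD genes 8 rose and 5 fell, and without primary library 1 the number that fell was 9. RELB, of the noncanonical NF-kappaB arm, was at 62.2, 59.9 and 67.4 CPM in senescent libraries, against 13.9, 9.33 and 10.4 CPM in primary libraries, and REL, of the canonical arm, was higher by a ratio of 97.2 (95% counting interval 17.1 to 3869). SMAD6, which inhibits BMP signals, and IRF7, of the interferon response, fell by 1.45 ± 0.10 and 1.52 ± 0.33.

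The remaining families held some high and even values. KLF5, a factor of proliferating epithelium and smooth muscle, was at 72.5, 78.0 and 73.5 CPM in senescent libraries, against 11.1, 12.9 and 13.0 CPM in primary libraries (2.60 ± 0.11, adjusted p = 7.71e-07), and ETV4, an ETS factor downstream of growth factors, at 57.2, 55.1 and 57.8 CPM, against 12.5, 12.7 and 12.5 CPM. PRDM12, a factor of pain-sensing neurons, was at 116, 127 and 127 CPM in senescent libraries, against 14.8, 17.9 and 21.4 CPM in primary libraries. In all 3 genes the libraries of each group lay near each other. ATOH8, a basic helix-loop-helix factor, fell to 25.1, 24.8 and 25.9 CPM in senescent libraries, against 210.2, 149 and 181 CPM in primary libraries, and OSR1, of limb and kidney mesenchyme, to 3.81, 4.22 and 4.63 CPM, against 41.7, 20.4 and 26.9 CPM. SNAI2, a factor of mesenchymal state, fell by 1.36 ± 0.08, and HEY2, a target of Notch, rose by 4.84 ± 0.32.

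Ligand-gated and potassium channel genes rose more often than they fell. Of 21 ligand-gated channel genes 15 rose and 2 fell (median 1.25), and under the stricter filter 6 rose and 1 fell. GRIK2, a kainate glutamate receptor, had 22.8, 22.5 and 21.0 CPM in senescent libraries, against 0.0681, 0.0471 and 0.0623 CPM in primary libraries, a ratio of 383 (95% counting interval 131 to 1860.5). The glutamate receptor gene GRIA2 and the GABA receptor gene GABRG1 lacked counts in the primary group, and their senescent levels were higher by at least 74.7-fold and 103-fold. P2RX4, a channel opened by ATP, fell by 1.17 ± 0.13. Of 28 potassium channel genes 17 rose and 4 fell (median 1.20), with 2 falling when senescent library 1 or 2 was left out. Under the stricter filter 10 potassium channel genes rose and 1 fell. KCNMA1, the large-conductance channel opened by calcium, was at 138, 132 and 122 CPM in senescent libraries, against 0.613, 1.51 and 1.74 CPM in primary libraries (6.63 ± 0.35, adjusted p = 2.52e-06). The voltage-gated channel KCNH7 was higher by a ratio of 563 (95% counting interval 101 to 22286). The summed level of the neuronal markers was 35.0 to 38.3 CPM in senescent libraries, against 26.6 to 32.6 CPM in primary libraries, nearly all of it from TUBB3, a tubulin that fibroblasts also make. INA, a neuronal intermediate filament, fell by 3.46 ± 0.46, or by 4.05 without senescent library 2. The part of neuronal cells in these channel counts was not tested.

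Sodium and calcium channels were divided. Of 8 sodium and acid-sensing channel genes 5 rose and 2 fell, with SCN9A, a channel of sensory nerves, at 35.2, 35.0 and 30.2 CPM in senescent libraries, against 1.57, 1.74 and 0.685 CPM in primary libraries. Of 23 calcium channel genes 8 rose and 8 fell. CACNA1G, a low-voltage calcium channel, fell to 6.86, 8.98 and 8.06 CPM in senescent libraries, against 51.0, 26.4 and 25.8 CPM in primary libraries. The calcium release channel ITPR1 rose to 81.1, 82.4 and 72.6 CPM in senescent libraries, against 6.95, 35.5 and 15.9 CPM in primary libraries, and its relatives ITPR2 and ITPR3 rose by 1.77 ± 0.49 and 1.85 ± 0.26. Without primary library 2 the rise of ITPR2 was 2.39. Primary library 1 was the lowest for ITPR1 and ITPR2 and the highest for ITPR3. Of 13 TRP channel genes 4 rose and 5 fell: TRPC4 rose to 14.4, 16.2 and 15.3 CPM, against 2.04, 1.98 and 1.99 CPM, and TRPV2 fell to 0.167, 0.181 and 0.0891 CPM, against 3.00, 2.64 and 3.05 CPM. ANO1, a chloride channel opened by calcium, rose by 4.03 ± 0.41, and CLIC2, a chloride channel family protein, fell by 2.93 ± 0.18.

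Water, metabolite and exchange proteins completed the class. AQP1, the water channel of vessels and fibroblasts, had 20.2, 18.0 and 16.5 CPM in senescent libraries, against 395, 465 and 488 CPM in primary libraries (-4.62 ± 0.22, adjusted p = 1.67e-06). PANX1, a large-pore channel that releases ATP, rose by 2.10 ± 0.58, but by 3.21 without primary library 2 and without a call when primary library 3 was left out (adjusted p = 0.0535). Of 39 genes for carriers of amino acids, glucose and monocarboxylates 17 rose and 10 fell, among them SLC16A7, a lactate and pyruvate carrier, which fell to 0.418, 0.544 and 0.445 CPM, against 19.8, 22.9 and 25.3 CPM. Of 36 ion pump and exchanger genes 16 rose and 8 fell. The sodium and calcium exchanger SLC8A1 was higher by a ratio of 276 (95% counting interval 49.2 to 10918), and the potassium and chloride cotransporter SLC12A7 fell to 0.167, 0 and 0.0891 CPM, against 5.59, 8.06 and 7.54 CPM. Among members with high means that did not pass were the chloride channel family gene CLIC4 and the cotransporter gene SLC12A4, with changes of 0.57 ± 0.25 and 0.14 ± 0.08; CLIC4 passed without primary library 2, at 0.84, and SLC12A4 without primary library 1, at 0.17.

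**Figure D5:**
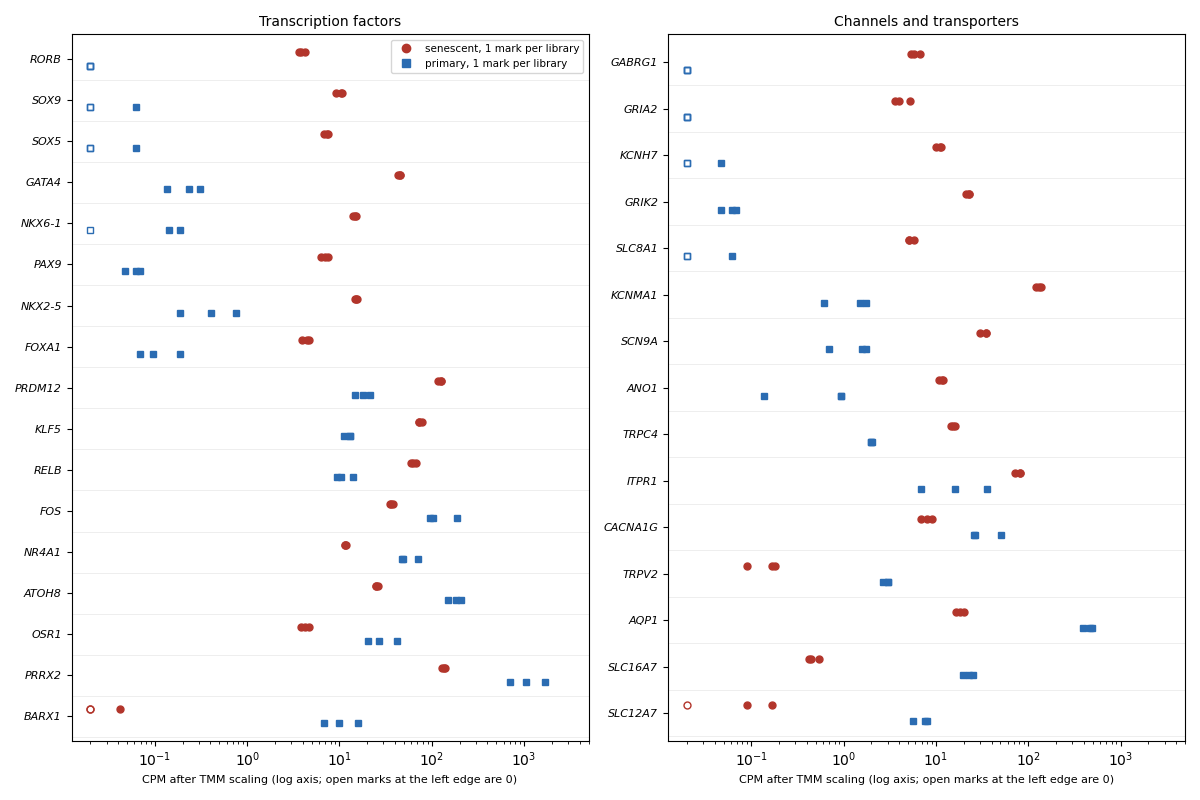
CPM after TMM scaling on a log axis for 17 transcription factors (left) and 15 channels and transporters (right), with 1 mark per library: senescent libraries as circles in the upper line of each row, primary libraries as squares in the lower line, and open marks at the left edge for libraries without a count. On the left the senescent marks lie to the right of the primary marks from RORB to RELB and to the left from FOS to BARX1; in the right panel the change of side comes between ITPR1 and CACNA1G.

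Adhesion genes rose more often than they fell, except claudins, of which 1 of 3 rose and 1 fell. Of 36 cadherin and protocadherin genes 18 rose and 5 fell (median 1.39), and under the stricter filter 10 rose and 3 fell. DSG2, a desmosome cadherin, was at 76.2, 79.2 and 70.9 CPM in senescent libraries, against 0.0681, 0.0943 and 0.0623 CPM in primary libraries (9.83 ± 0.21, adjusted p = 1.28e-07), and PKP2, which anchors desmosomes inside the cell, was higher by a ratio of 604 (95% counting interval 167 to 4996). Of 33 immunoglobulin-type adhesion genes 16 rose and 7 fell, and the number that rose was 7 under the stricter filter. CHL1, a neural adhesion molecule, was without counts in primary libraries and at least 222-fold higher in senescent ones, and NCAM1, its relative, was at 14.6, 14.1 and 13.5 CPM in senescent libraries, against 0.341, 0.754 and 0.498 CPM in primary libraries. SDK1, an adhesion molecule of synapses, fell to 0.335, 0.227 and 0.178 CPM, against 36.9, 60.5 and 50.2 CPM, and JAM3, of endothelial and epithelial junctions, to 6.61, 6.80 and 7.53 CPM, against 49.5, 33.8 and 42.2 CPM. CLDN1, a tight junction protein of skin, was higher by a ratio of 228 (95% counting interval 40.6 to 9028), beside epithelial markers that were under 1 CPM in both groups except ESRP1. Protocadherin genes of the gamma cluster share exons, so their counts are uncertain.

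Outside these classes, the rule for named genes gave the largest changes among genes that reached 10 CPM in 1 group. The largest rises held CD163L1, a scavenger receptor, at 66.7, 69.6 and 70.8 CPM in senescent libraries and no counts in primary libraries, and TRIM63, a ubiquitin ligase of wasting muscle, at least 1194-fold and at least 689-fold higher. F8, coagulation factor VIII, had 200.3, 200.2 and 181 CPM in senescent libraries, against 0.136, 0.566 and 0.0623 CPM in primary libraries. The largest falls held the small matrix proteoglycans FMOD and BGN, which bind collagen, at 0.460, 0.453 and 0.668 CPM and 0.627, 0.952 and 0.579 CPM in senescent libraries, against 278, 374 and 384 CPM and 559.7, 302 and 359 CPM in primary libraries. ALDH1A1, which makes retinoic acid, fell to 0.544, 0.907 and 0.579 CPM, against 116, 158 and 174 CPM, and MYOC, a secreted glycoprotein of the eye, was lower by a ratio of 456 (95% counting interval 126 to 3775). CRABP1, a retinoic acid binding protein, was without counts in senescent libraries and at least 227-fold lower there. The rule took only genes whose groups do not overlap, so the groups stand apart in these 8 genes by selection.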

How the data were processed

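RNA was measured by sequencing in cultured cattle fibroblasts. Per the labels, RNeasy mini kits, NEBNext Ultra II RNA library kits and single reads on a NextSeq were used. The genome build was UMD3.1, per the submitters' processing notes. The deposited table holds expected counts per gene, which its file name credits to salmon with libraries merged. Nothing in the sources used here gives the salmon version, the annotation or the strand setting, so overlapping and antisense genes cannot be told apart. The authors' values were not whole in 6.3% to 7.18% of the entries of each Simmental-like library, and all were rounded here before the tests. Each column was matched to a sample by its description.

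The 9 Simmental-like libraries were fitted together in edgeR 4.0.16 (R 4.3.3), scaled by TMM and filtered with filterByExpr. The quasi-likelihood fit was robust, and the F-test of senescent minus primary was adjusted by Benjamini-Hochberg over 13099 of 24596 genes, with a threshold of 0.05. The SE is the absolute log2 change divided by the root of F. Gene lists (60, including 11 of cell type markers) and ligand and receptor pairs were counted, not tested. Members, lists and pairs were chosen with earlier results of these data known.

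The rule for named genes has 4 parts: the 10 largest rises and falls among genes that reached 10 CPM in 1 group; up to 3 rises and 3 falls per list among members that reached 1 CPM; pairs in which both members passed; and the 5 highest members of each of 4 classes that did not pass. The first 2 parts ask for groups that do not overlap. The text names only some of them and leaves out most members that did not pass, whose small changes turned sign under an alternative. MYOD1, MYOG, PAX7, TYR, DCT, MLANA, MS4A1, TYROBP and RSPO3 were named after their values were seen. Against a group without counts, a fold is a bound that takes 3 counts over that group, and where the group held 1 to 3 counts a ratio is printed with an exact 95% interval. Both cover counting error only, as reads carry no molecular identifiers. The steps were tested on simulated data. Alternatives were other scalings, filters and tools (DESeq2 1.42.0, limma 3.58.1), the 6 libraries alone, a replicate block, a minimum change, summed senescent libraries 1 and 2, and leaving out each library. A fit with library weights was chosen after seeing the data.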

Additional observations from a re-analysis of the deposited data

How the results depend on the processing

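The count of 7591 genes stayed within 1.5 times of its value under every other scaling, filter, tool and set of libraries tried; it was 1858 (1197 higher, 661 lower) with a minimum change of 2-fold. By total counts 5955 genes were higher and 1840 lower, and with library weights 5581 were higher. Leaving out 1 library gave 5838 to 9042 genes (2891 to 4557 higher, 2945 to 4524 lower). Of the list members outside the markers 788 passed, 555 under the stricter filter and 371 with the minimum change. Both members passed in 21 pairs, in 12 under the stricter filter, in 4 with the minimum change, and in 14 to 28 when 1 library was left out. CXCL12 turned to 0.19 by total counts, and ITGB1, which did not pass, to -0.075 (log2) under voom with library weights and to between -0.30 and 0.40 when 1 library was left out. The replicate numbers do not pair the libraries: same-numbered libraries had correlations of -0.108, 0.182 and -0.0646 in their deviations, and a replicate block gave 6743 genes. Senescent libraries 1 and 2 lay close to counting noise (chi-square per gene 1.36, against 3.48 and 3.93 for the other senescent pairs); summed, they gave 5943 genes. In 6 libraries alone, where the immortalized libraries do not enter the estimate of spread, 5876 genes passed. There 1628 of the 7591 genes missed the threshold. The cause of these differences was not tested.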
